A study of Mus musculus with 6 samples.

Results

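The genes described here are 32 markers of cochlear macrophages and receptors for complement fragments. They were chosen by symbol with earlier results of these data known, and 31 of them had a row among the 17666 genes measured. Vsig4, which encodes the complement receptor CRIg, is not analysed here. The tissue was the auditory nerve of young adult C57 mice aged 1.5 to 2.5 months, profiled by RNA sequencing. Wildtype mice were compared with mice labelled FactorB KO, a label for the knockout of complement factor B, with 3 samples per genotype. Each sample pooled the nerve microdissected from the 2 cochleas of 1 mouse. Neither the knockout allele nor the sex of the mice is given in the sources used here. The dissected nerve holds neurons, Schwann cells, vessels and immune cells together, so fewer macrophages and less RNA per macrophage cannot be told apart.

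Resident macrophages of the cochlea lie along the auditory nerve and its ganglion, the blood vessels and the lateral wall. They depend on signalling through the receptor encoded by Csf1r, take up debris, and sense fragments of complement proteins. When complement is activated, C3 is cleaved into C3a, which binds the receptor encoded by C3ar1, and C3b, whose inactivated form iC3b is bound by complement receptor 3, the dimer of the Itgam and Itgb2 products, and by complement receptor 4, the dimer of the Itgax and Itgb2 products. C5a, released from C5, binds the receptor encoded by C5ar1. Factor B is part of the alternative pathway convertase that cleaves C3.

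Values are the authors' normalized counts, whose totals per library were between 38675077 and 41496282. Cfb, the gene of factor B, went against the labels, with 55, 39 and 116 normalized counts in the wildtype libraries and 336, 351 and 376 in the libraries labelled knockout. Its log2 difference was 2.47 (SE 0.38, limma, adjusted p = 0.107). Without wildtype replicate 3 it was 2.91 (adjusted p = 0.00488, with a range of 0.00488 to 0.469 over the alternatives). Cfb was 5.08-fold higher by the authors' own fold change, with a false discovery rate of 1.8e-06. Values per gene cannot show whether these reads come from the part of Cfb that the knockout disrupts. Every direction given here is thus one between label groups. Markers of the labelled tissue were abundant: 7 Schwann cell genes summed to between 395175 and 722816 in wildtype libraries and between 399689 and 491640 in those labelled knockout, and 8 neuronal genes to 301255 to 524600 and 416674 to 505815. Among markers of blood and marrow, 0 of 13 neutrophil and marrow genes and 0 of 9 red cell genes passed an adjusted p of 0.05 by limma. At an unadjusted p under 0.05, 10 and 9 of them were lower, where 9.20% of all genes were, and 0 were higher, where 10.8% were. The 13 neutrophil and marrow genes summed to 884, 1126 and 2705 in wildtype libraries and to 771, 414 and 51 in the others, with Elane, Ly6g, Retnlg and Ctsg at 0 in at least 1 library. The 9 red cell genes summed to 10652 to 33095 and to 2698 to 3882, with Epb42 at 0 in at least 1 library. Wildtype replicate 3 had the highest sum of both lists. The 5 measured osteoclast genes summed to 743 to 1260 and to 525 to 708, with Dcstamp at 0 in at least 1 library. The 8 genes of T and NK cells summed to 77 to 161 and to 62 to 113, with Cd3g, Ncr1 and Klrb1c at 0 in at least 1 library. The 5 of mast cells summed to 3033 to 3555 and to 2768 to 3573, with Mcpt4 and Cma1 at 0 in at least 1. The mast cell sums overlapped, but the median log2 difference of these 5 genes was -1.68. By limma at an unadjusted p under 0.05, 1 of the 5 was lower, where 9.20% of all genes were, and 0 were higher, where 10.8% were. The 5 genes of blood endothelium summed to 6909 to 7125 and to 8238 to 9501, with 0 past the adjusted threshold by limma. At an unadjusted p under 0.05, 3 of them were higher, where 10.8% of all genes were. The part of these cells in the differences of the macrophage genes was not tested.

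Across the macrophage genes there was no common shift between the labels that exceeded the spread between replicates. By limma, 0 of the 31 genes passed an adjusted p of 0.05, and 0.158% of all genes did. At an unadjusted p under 0.05, Itgam was the 1 gene higher in the libraries labelled knockout, where 10.8% of all genes were higher, and 4 genes were lower (Cd86, Cd14, Tyrobp and Cd68), where 9.20% of all genes were lower. The values of the labels did not overlap for 2 genes that were higher (Itgam and Cx3cr1) and 8 that were lower (Cd86, C5ar1, Tyrobp, Fcgr3, Fcer1g, Cd68, Ms4a7 and Cd53), against 13.6% and 14.9% of all genes. By sign alone, 12 genes were higher and 19 lower. Their median log2 difference was -0.15, beside 0.01 over all genes. The median was -0.07 without wildtype replicate 3, -0.26 without knockout replicate 1 and -0.02 without knockout replicate 3. In the authors' deposited table, Itgam was called as higher, where 4.14% of the genes with a rate were, and Cd86 as lower, where 3.25% were. The number of genes at an unadjusted p under 0.05 was 3 without wildtype replicate 2 (13.9% of all genes), 8 without wildtype replicate 3 (29.2%), 3 without knockout replicate 2 (10.2%), 2 without knockout replicate 3 (10.7%) and 8 after quantile normalization (20.4%). The genes whose values did not overlap numbered 16 without wildtype replicate 3, where 47.7% of all genes did not, and 11 without knockout replicate 2, where 33.2% did not.

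**Figure D1:**
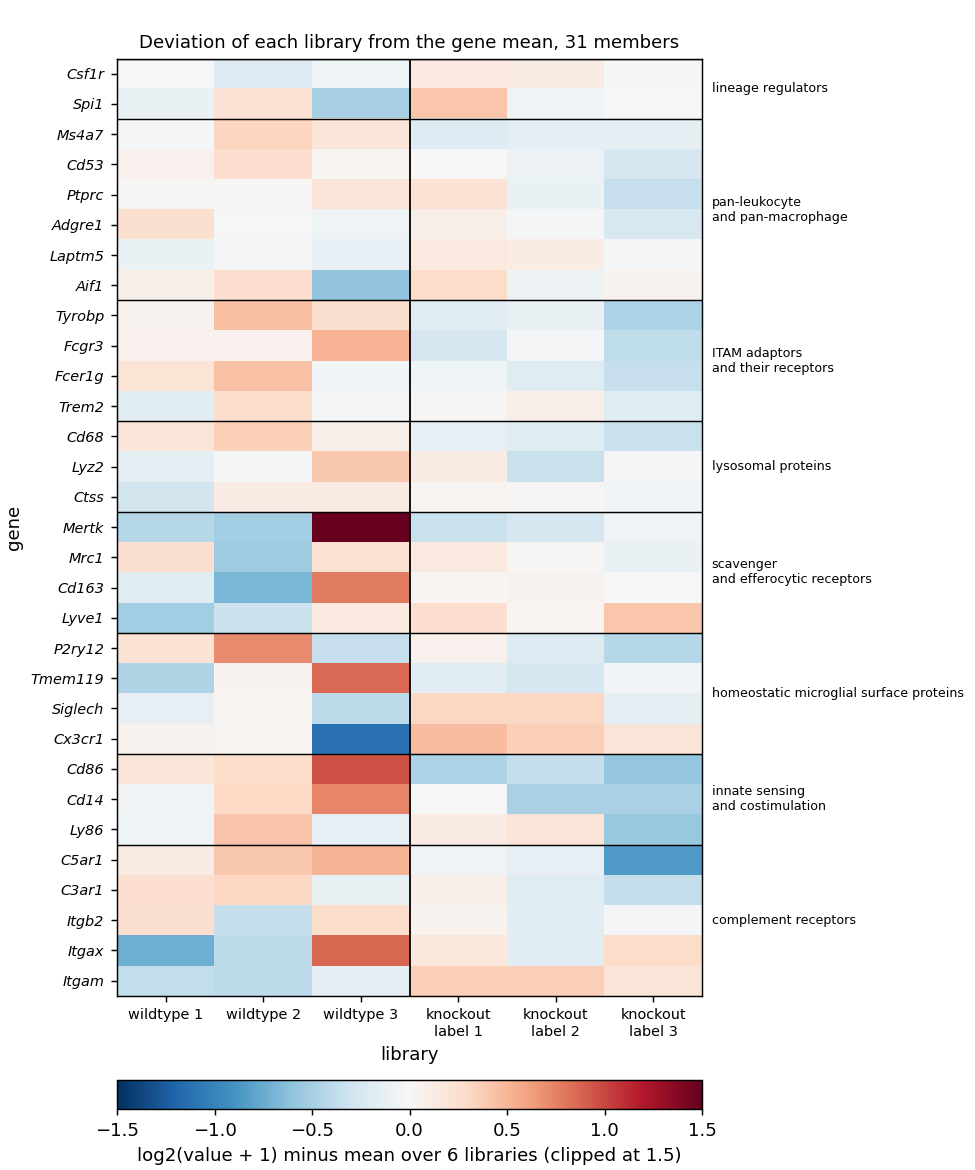
Heat map of the 31 genes (rows, grouped by role) in the 6 libraries (columns). Colour is the log2(value + 1) of a library minus the mean of that gene over the 6 libraries, clipped at 1.5, with red above and blue below the mean. Itgam is below its mean in the 3 wildtype libraries and above it in the 3 labelled knockout, and wildtype 3 holds the most extreme cells, Mertk (high) and Cx3cr1 (low).

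Complement receptors did not move together. Itgam, the alpha subunit of complement receptor 3, lies on chromosome 7 (128062640 to 128118491, mm10), and had 325, 319 and 380 normalized counts in wildtype libraries and 539, 537 and 482 in the libraries labelled knockout. Each of the 3 libraries labelled knockout was above each wildtype library. Mean levels of 341.3 ± 33.6 and 519.3 ± 32.3 (SD, n = 3 each) correspond to a 1.52-fold higher value. The log2 difference was 0.61 (SE 0.14, adjusted p = 0.161), which missed the limma threshold. Without wildtype replicate 3 Itgam passed, with a difference of 0.69 (adjusted p = 0.0488; alternatives ranged from 0.0488 to 0.485), in a fit that called 2.37% of all genes. The false discovery rate of Itgam in the authors' deposited table was 0.00678, at a fold change of 1.52.

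Itgb2 (chromosome 10, 77530329 to 77565708), the beta subunit that pairs with the products of Itgam and Itgax, had 236, 156 and 240 normalized counts in wildtype libraries and 208, 177 and 195 in the others. The values overlapped, with a log2 difference of -0.10 (SE 0.22, adjusted p = 0.833). Itgam counts per Itgb2 count were 1.38, 2.04 and 1.58 in wildtype libraries and 2.59, 3.03 and 2.47 in those labelled knockout, so this ratio, which does not depend on the scaling of a library, did not overlap between the labels. The ratio was chosen after the values were seen, and the share of all genes whose ratio to Itgb2 does not overlap was not computed. Itgax, the alpha subunit of complement receptor 4 and a marker of dendritic cells, lies 11034 bases beyond Itgam (128129526 to 128150657). It was the least abundant of the 31 genes, with 18, 23 and 56 normalized counts in wildtype libraries and 34, 27 and 37 in the others. Its log2 difference of 0.17 (SE 0.46, adjusted p = 0.863) was 0.65 without wildtype replicate 3, which alone held the count of 56. The 7 dendritic cell genes listed summed to 1512 to 2811 in wildtype libraries and to 2274 to 2802 in the others, with Xcr1 and Ly6d at 0 in at least 1 library. Whether Itgam and its neighbour Itgax differ in their response was not tested.

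C3ar1 (chromosome 6, 122847140 to 122856157), the receptor of C3a, had 258, 267 and 199 normalized counts in wildtype libraries and 230, 190 and 168 in the others, which overlap. Its log2 difference was -0.30 (SE 0.20, adjusted p = 0.445). C5ar1 (chromosome 7, 16246743 to 16259540), the receptor of C5a, had 77, 94 and 101 normalized counts against 68, 65 and 39. All 3 libraries labelled knockout were below the wildtype libraries, with means of 90.7 ± 12.3 and 57.3 ± 15.9 (SD, n = 3 each). The log2 difference of -0.68 (SE 0.29) did not pass (adjusted p = 0.252), and without knockout replicate 3, the lowest library, it was -0.43. Neutrophils also carry the products of Itgam, Itgb2 and C5ar1. The summed neutrophil and marrow genes were at 884 to 2705 in wildtype libraries and at 51 to 771 in the others. Their part in the differences of Itgam, Itgb2 and C5ar1 was not tested. The median log2 difference of the 5 complement receptors was -0.10, and 0.01 without wildtype replicate 3.

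**Figure D2:**
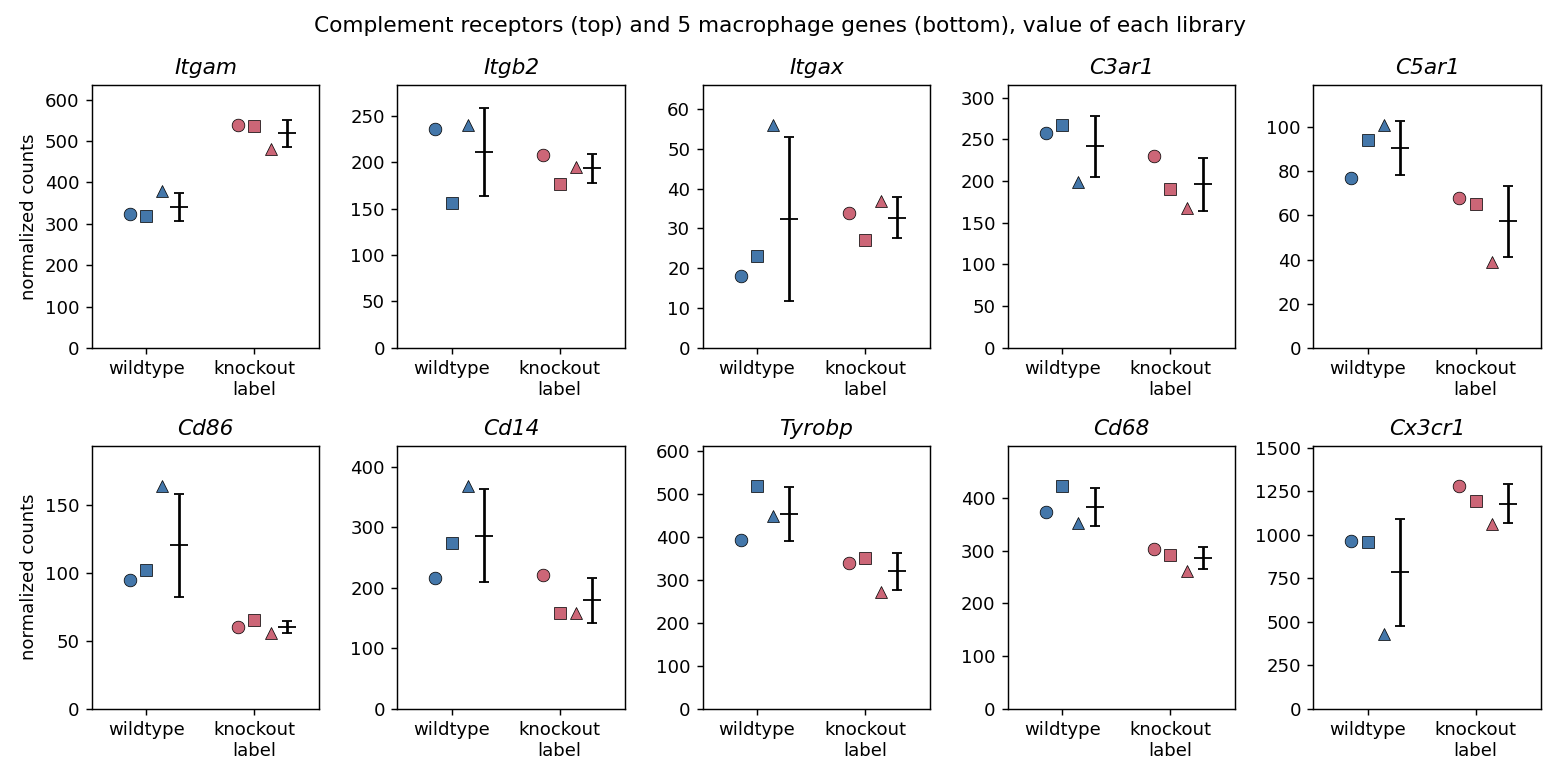
Normalized counts (vertical axes, from 0) of the 5 complement receptors (top row) and of Cd86, Cd14, Tyrobp, Cd68 and Cx3cr1 (bottom row) in wildtype libraries (blue) and libraries labelled knockout (red), with circles, squares and triangles for replicates 1, 2 and 3 and bars for the mean ± SD (n = 3). Itgam is between 319 and 380 in wildtype libraries and between 482 and 539 in the others, while Cd86 is at least 95 in wildtype libraries and at most 65 in the others.

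Spi1 encodes PU.1, a transcription factor of myeloid cells whose recognition sequences contain the PU box GAGGAA. To show where this motif lies, the bases before the transcription start of Itgam, its neighbour Itgax and Cd68 are printed from RefSeq promoters of GRCm38.p6. They run 5′ to 3′ on the strand of the gene, with GAGGAA or its reverse complement TTCCTC in capitals. These genes were chosen with their values known, and whether the motif goes with the differences was not tested. The windows are chr7:128062390-128062639 (plus strand, 2 matches), chr7:128129300-128129525 (plus strand, 0 matches) and chr11:69666171-69666420 (minus strand, 1 match).
Itgam: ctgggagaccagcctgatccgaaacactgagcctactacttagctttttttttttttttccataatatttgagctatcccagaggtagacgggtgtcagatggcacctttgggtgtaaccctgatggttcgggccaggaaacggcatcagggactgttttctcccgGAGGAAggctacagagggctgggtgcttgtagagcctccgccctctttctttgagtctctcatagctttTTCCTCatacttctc
Itgax: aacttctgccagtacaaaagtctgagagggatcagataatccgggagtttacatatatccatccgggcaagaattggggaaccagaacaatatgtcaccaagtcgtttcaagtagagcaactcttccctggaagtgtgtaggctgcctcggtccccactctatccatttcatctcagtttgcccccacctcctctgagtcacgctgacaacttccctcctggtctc
Cd68: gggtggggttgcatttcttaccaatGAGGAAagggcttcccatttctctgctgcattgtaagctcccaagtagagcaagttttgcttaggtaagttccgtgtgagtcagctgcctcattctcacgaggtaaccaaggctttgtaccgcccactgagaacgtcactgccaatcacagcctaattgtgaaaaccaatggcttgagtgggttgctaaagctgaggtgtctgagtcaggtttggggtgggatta

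Within 250 bases before the start, 10 of the 22 macrophage genes with a RefSeq promoter held the motif on either strand (45.5%), among them Ptprc, Laptm5, Ctss, Trem2 and Mrc1, and 26.1% of the 13558 measured genes with a promoter did. Genes with the motif lay in both directions, Itgam with a positive and Cd68 with a negative log2 difference. Spi1 itself had 106, 132 and 80 normalized counts in wildtype libraries and 151, 109 and 114 in the others. The values overlapped, and the log2 difference was 0.25 (SE 0.26, adjusted p = 0.630).

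Most genes that mark macrophages or leukocytes as a whole did not differ beyond the spread between replicates. Csf1r, the receptor of the growth factors CSF1 and IL-34, had 2993, 2602 and 2835 normalized counts in wildtype libraries and 3299, 3228 and 2924 in the others, which overlap. The log2 difference was 0.17 (SE 0.11, adjusted p = 0.419). Ptprc, which encodes the leukocyte phosphatase CD45, had 273, 273 and 307 against 314, 252 and 211, with a difference of -0.15 (SE 0.19, adjusted p = 0.693). Adgre1, which encodes F4/80, had means of 427.7 ± 50.3 and 396.7 ± 44.7 (SD, n = 3 each). Laptm5, a lysosomal membrane protein of blood cells, had 1064.0 ± 39.9 and 1184.3 ± 74.1, and Aif1, which encodes IBA1, had 81.3 ± 23.5 and 89.0 ± 11.1. None of these 5 genes had labels that did not overlap. The tetraspanin gene Cd53 and the membrane protein gene Ms4a7 did separate the labels: Cd53 had 218, 248 and 214 normalized counts against 207, 197 and 175, and Ms4a7 had 141, 180 and 162 against 125, 130 and 129. Their log2 differences were -0.23 (adjusted p = 0.468) and -0.32 (adjusted p = 0.367). Of the 6 pan-leukocyte and pan-macrophage genes, 2 were higher and 4 lower by sign, with a median of -0.13.

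No adaptor or receptor of the ITAM group passed the threshold. Tyrobp encodes DAP12, the adaptor through which TREM2 signals by its immunoreceptor tyrosine-based activation motif (ITAM). It had 393, 519 and 448 normalized counts in wildtype libraries and 338, 350 and 271 in the others, which do not overlap. The means were 453.3 ± 63.2 and 319.7 ± 42.6 (SD, n = 3 each), with a log2 difference of -0.50 (SE 0.18, adjusted p = 0.201). Fcer1g, the gamma chain that carries the ITAM of Fc receptors, had 328, 386 and 277 against 272, 252 and 224 (log2 difference -0.40, SE 0.18, adjusted p = 0.277). Fcgr3, an Fc receptor for immunoglobulin G that signals through it, had 386, 386 and 530 against 310, 366 and 283 (log2 difference -0.43, SE 0.19, adjusted p = 0.262). Neither of the latter genes overlapped between the labels, and Fcgr3 moved to -0.28 without wildtype replicate 3. Trem2, the lipid-sensing receptor, had 227, 303 and 247 against 257, 270 and 223, and its difference of -0.04 was within the spread between replicates. All 4 genes were lower by sign, with a median of -0.41, which became -0.03 after a correction for transcript length.

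Among lysosomal genes, Cd68, which encodes a membrane glycoprotein of macrophage lysosomes, had 374, 423 and 352 normalized counts in wildtype libraries and 303, 292 and 262 in the others. The labels did not overlap, and the log2 difference was -0.42 (SE 0.15, adjusted p = 0.204). Ctss, the protease cathepsin S, had means of 1590.3 ± 245.5 and 1596.0 ± 45.6, and Lyz2, a lysozyme of macrophages and neutrophils, had 2267.7 ± 468.8 and 2021.0 ± 319.3 (SD, n = 3 each). Both overlapped between the labels, with log2 differences of 0.02 for Ctss and -0.16 for Lyz2. After the length correction the difference of Cd68 was -0.16 as well.

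Costimulation and pattern recognition genes held the largest negative difference of the 31 genes. Cd86, a ligand of the T cell receptors CD28 and CTLA-4, had 95, 102 and 164 normalized counts in wildtype libraries and 60, 65 and 56 in the others. The means were 120.3 ± 38.0 and 60.3 ± 4.5 (SD, n = 3 each), and the labels did not overlap. The log2 difference of -0.94 (SE 0.27, adjusted p = 0.171) was -0.70 without wildtype replicate 3, the highest library. In the authors' deposited table Cd86 was lower by 1.99-fold with a false discovery rate of 0.0413. Cd14, the lipopolysaccharide co-receptor, had 216, 274 and 369 against 222, 158 and 158, with 1 library labelled knockout above the lowest wildtype library. Its log2 difference of -0.66 (SE 0.25, adjusted p = 0.224) was -0.46 without wildtype replicate 3. Ly86, which encodes MD-1, a partner of the receptor CD180, had 217, 305 and 208 against 247, 259 and 153 and a difference of -0.16 (adjusted p = 0.768). Wildtype replicate 3 had the highest values of Cd86 and Cd14, and also of the neutrophil and marrow list, whose part in these differences was not tested. Genes of B cells, which also carry CD86, summed to 111, 130 and 150 in wildtype libraries and to 64, 79 and 40 in the others for 6 genes, none of them at 0 in any library, and their part was not tested either.

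Surface genes of homeostatic microglia, several of which nerve and cochlear macrophages share, did not move as a group. Cx3cr1, the receptor of the neuronal chemokine fractalkine, had 966, 959 and 427 normalized counts in wildtype libraries and 1282, 1192 and 1060 in the others. The labels did not overlap, but wildtype replicate 3 lay far below the other libraries. The log2 difference of 0.68 (SE 0.32, adjusted p = 0.281) was 0.29 without it (adjusted p = 0.157, with a range of 0.157 to 0.552 over the alternatives). Siglech, a sialic acid receptor of microglia and plasmacytoid dendritic cells, had 158, 175 and 131 against 214, 214 and 156 (log2 difference 0.32, SE 0.22, adjusted p = 0.432). P2ry12, the ADP receptor of microglia, had 383, 540 and 259 against 345, 286 and 245, with a difference of -0.38 (SE 0.29, adjusted p = 0.484) that was -0.12 without wildtype replicate 2. Tmem119, a membrane protein of microglia and osteoblasts, had 658, 932 and 1626 against 809, 752 and 874, and its difference went from -0.30 to 0.05 without wildtype replicate 3. By sign, 2 of these 4 genes were higher and 2 lower.

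None of the 4 scavenger and efferocytic receptors passed the threshold, and wildtype replicate 3 set the values of Mertk and Cd163. Mertk, a receptor for the uptake of dying cells that glia express as well, had 1552, 1446 and 6274 normalized counts in wildtype libraries and 1644, 1747 and 2003 in the others. Its log2 difference was -0.43 (SE 0.53, adjusted p = 0.684) and changed sign to 0.26 without that library. Cd163, the haemoglobin scavenger receptor of perivascular macrophages, had 114, 80 and 222 against 132, 134 and 128, and its difference went from 0.05 to 0.46. Mrc1, the mannose receptor CD206, had 1057, 622 and 1051 against 993, 905 and 840, with a difference of 0.04 (adjusted p = 0.936) that was -0.21 without wildtype replicate 2, its lowest library. Lyve1, a hyaluronan receptor of perivascular macrophages and lymphatic endothelium, had 124, 143 and 199 against 213, 182 and 240. The values overlapped, since wildtype replicate 3 exceeded knockout replicate 2, and the log2 difference of 0.46 (SE 0.23, adjusted p = 0.310) was 0.66 without wildtype replicate 3. The 6 listed genes of lymphatic endothelium, Lyve1 among them, summed to 5313 to 6505 in wildtype libraries and to 7509 to 7772 in the others, with Ccl21a at 0 in at least 1 library. Prox1 alone had a mean of 1750.8 over the 6 libraries, beside Lyve1 means of 155.3 and 211.7. The sums thus follow other genes than Lyve1 and do not show which cells hold them. The part of lymphatic endothelium in the Lyve1 difference was not tested.

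**Figure D3:**
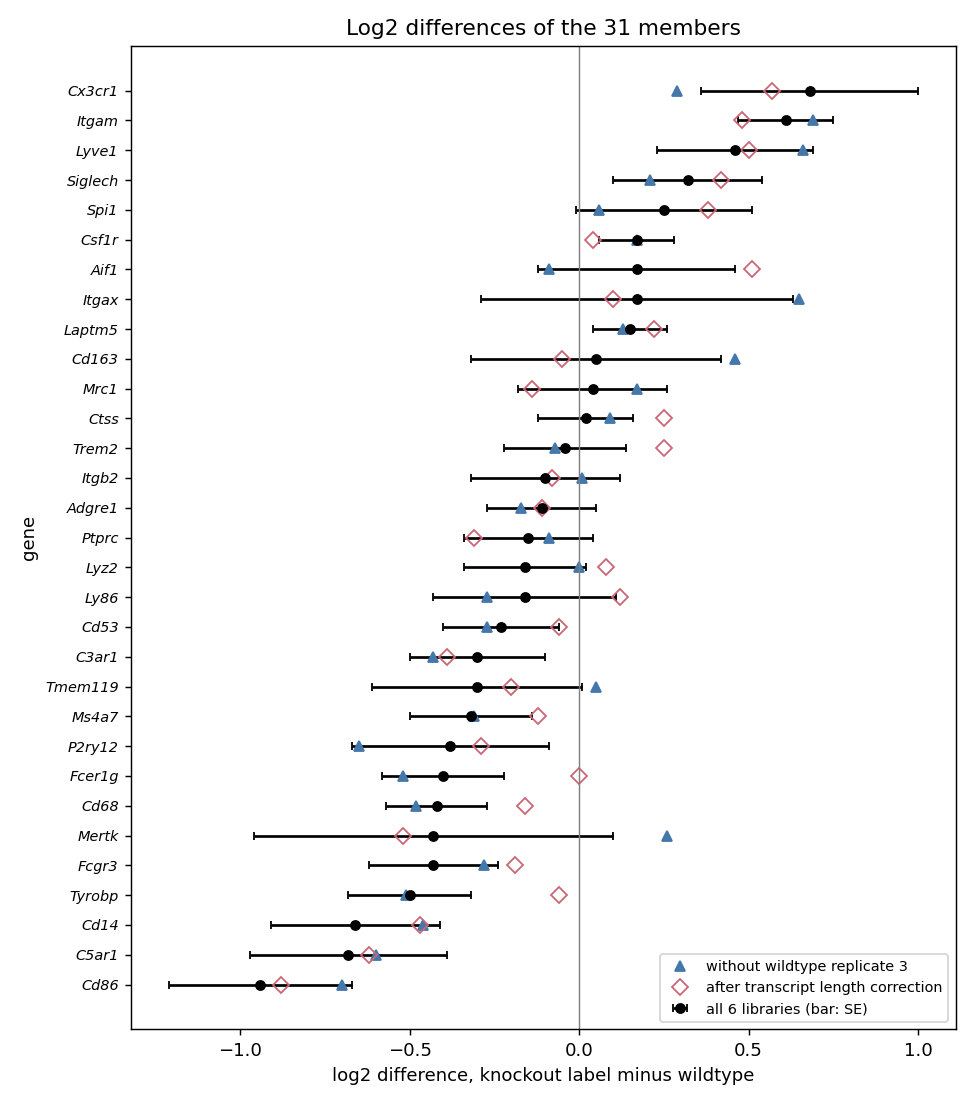
Log2 differences (horizontal axis, knockout label minus wildtype) of the 31 genes, ordered by size, with black points and bars for the value and SE over all 6 libraries, blue triangles for the value without wildtype replicate 3 and open red diamonds for the value after a correction for transcript length. Cd86 (-0.94) and Cx3cr1 (0.68) form the ends, Tyrobp and Fcer1g move to -0.06 and 0.00 after the length correction, and Mertk moves from -0.43 to 0.26 without wildtype replicate 3.

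Transcript length went with the direction of the differences. Over 17358 genes with an annotated length, the log2 difference had a Spearman correlation of 0.41 with the length of the longest transcript, and over the 31 macrophage genes it was 0.39; the genes share the same 6 libraries and are not independent, so no p is given. The 12 macrophage genes with transcripts under 2000 bases had a median of -0.28, with 10 lower by sign, beside -0.21 for all genes of that length. The 9 with 4000 bases or more had a median of 0.05, with 6 higher, beside 0.21 for all such genes. Tyrobp (564 bases), Fcer1g (683), Cd68 (1230) and Fcgr3 (1347) were among the short ones, and Itgam (4682) and Cx3cr1 (4493) among the long ones. After each library was corrected for length, the log2 differences of Tyrobp, Fcer1g, Cd68 and Fcgr3 were -0.06, 0.00, -0.16 and -0.19. Those of Itgam (0.48), Cx3cr1 (0.57), Cd86 (-0.88) and C5ar1 (-0.62) were closer to the uncorrected values. Itgam and Cd86 were then the 2 macrophage genes at an unadjusted p under 0.05 by limma, where 14.6% of all genes were, and neither passed after adjustment (adjusted p = 0.253 and 0.258). The median of the 31 genes was -0.06 after the correction. Whether RNA quality or library preparation lies behind the relation with length was not tested.

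**Figure D4:**
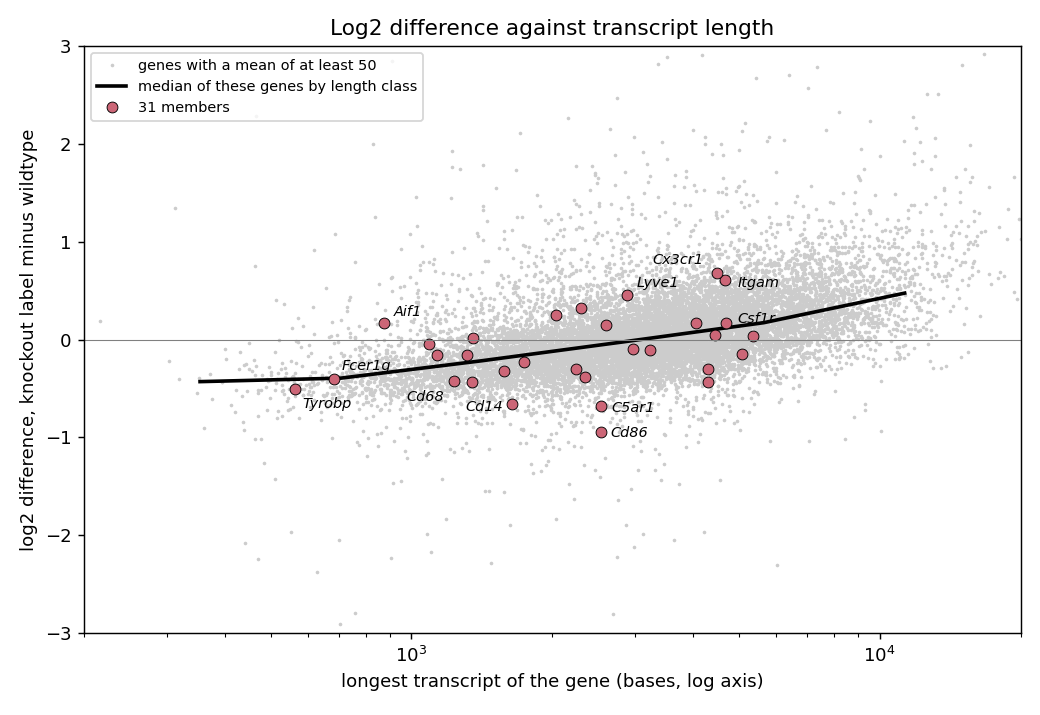
Log2 difference (vertical axis, knockout label minus wildtype) against the longest transcript of the gene (horizontal axis, bases, log scale) for 14043 genes with a mean of at least 50 (grey; 15 lie outside the axis range), with their median by length class as a black line and the 31 macrophage genes as red points. Tyrobp and Fcer1g lie near the black line at the short end, Itgam and Cx3cr1 above it at the long end, and Cd86 and C5ar1 below it.

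Per kilobase of transcript, the genes spanned a wide range of levels. Lyz2 had 1720 ± 356 normalized counts per kilobase in wildtype libraries, Ctss 1170 ± 181, Tyrobp 804 ± 112 and Csf1r 598 ± 41.8 (SD, n = 3 each). Mertk had 718 ± 641, so its place in that order was not resolved. Among the complement receptors, Itgam with 72.9 ± 7.18 and Itgb2 with 70.9 ± 16.0 did not differ beyond their spread in wildtype libraries, whereas in the libraries labelled knockout Itgam had 111 ± 6.91 and Itgb2 65.1 ± 5.24. C3ar1 (56.1 ± 8.58) was above C5ar1 (35.7 ± 4.86), and Itgax (7.99 ± 5.10) was the lowest. Wildtype libraries varied more from one another than the libraries labelled knockout: the SD of the log2 values was larger among them for 24 of the 31 genes, as it was for 79.9% of all genes. Wildtype replicate 3 was the highest or lowest of the 6 libraries in 16 of the 31 genes, against 53.9% of all genes, and knockout replicate 3 in 14, against 26.6%.

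The proteins that these receptors bind were examined as well. Of 10 measured genes of complement proteins, C3 and C4b rose and 0 fell by limma over all genes, of which 0.158% passed in either direction. C3 is the source of the fragments that the Itgam and C3ar1 products bind. Hc, the mouse gene of C5, had a mean of 7.5 normalized counts over the 6 libraries and a log2 difference of 0.34 (adjusted p = 0.707). C3 had 558, 757 and 643 normalized counts in wildtype libraries and 2329, 1757 and 1927 in the others (log2 difference 1.62, SE 0.16, adjusted p = 0.0297; 1.46 and adjusted p = 0.0696 after the length correction). C4b had 1856, 1669 and 1835 against 4429, 3929 and 3982 (log2 difference 1.20, SE 0.10, adjusted p = 0.0214). Both lost the call without wildtype replicate 2 (adjusted p = 0.0871 for each) and without any one library labelled knockout (adjusted p from 0.112 to 0.227 for C4b and from 0.141 to 0.227 for C3), with differences of 1.15 to 1.23 and 1.51 to 1.73. In the authors' deposited table C3 was 3.07-fold and C4b 2.3-fold higher, with false discovery rates of 7.82e-14 and 5.21e-20. C1qb, a chain of C1q that macrophages make, did not pass and had 1490.0 ± 172.3 and 1178.0 ± 84.6 (SD, n = 3 each), with a log2 difference of -0.33 that was -0.04 after the length correction. Among 10 other complement receptors and surface regulators, 0 passed by limma in either direction. At an unadjusted p under 0.05, 2 were higher (10.8% of all genes) and 1 was lower (9.20%). Lrp1, an endocytic receptor that binds calreticulin-marked debris, had a log2 difference of 1.40, which was 0.70 after the length correction and 1.72 without wildtype replicate 3, where it passed (adjusted p = 0.0252; alternatives from 0.0252 to 0.485). The differences were -0.44 for Cd59a, which inhibits formation of the membrane attack complex, and 0.30 for the endothelial and myeloid receptor gene Cd93. The false discovery rates in the authors' deposited table were 0.00203 for Lrp1, 0.026 for Cd59a and 0.0964 for Cd93. Cr2, complement receptor 2 of B cells, had 6, 6 and 4 normalized counts against 16, 13 and 7.

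Of 9 measured genes of ligands of macrophage receptors, not all of them receptors described above, 0 passed in either direction by limma. At an unadjusted p under 0.05, 0 were higher (10.8% of all genes) and 1 was lower (9.20%). Il34, the second ligand of the Csf1r product, had 873, 964 and 1199 normalized counts in wildtype libraries and 585, 630 and 580 in the others, with a log2 difference of -0.75 (SE 0.15, adjusted p = 0.149). Without wildtype replicate 3 it was -0.62 and passed (adjusted p = 0.0487; alternatives from 0.0487 to 0.485). In the authors' deposited table Il34 was lower by 1.69-fold with a false discovery rate of 0.0015. Csf1, the other ligand, had 1377, 1461 and 793 against 1585, 1526 and 1518, with a difference of 0.40 that was 0.12 without wildtype replicate 3. Cx3cl1, which encodes fractalkine, the ligand of the Cx3cr1 product, had 2580.7 ± 76.4 and 2884.3 ± 39.6 (log2 difference 0.16, adjusted p = 0.355). Cd47, a signal that inhibits uptake by macrophages, had a difference of 0.10 and of -0.07 after the length correction.

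Below the ITAM adaptors, 0 of 13 signalling genes passed in either direction by limma, and the median difference was -0.02. At an unadjusted p under 0.05, 1 was higher (10.8% of all genes) and 0 were lower (9.20%). Plcg2, a phospholipase that acts downstream of TREM2, had 423, 350 and 387 normalized counts against 556, 530 and 542 (log2 difference 0.49, SE 0.13, adjusted p = 0.166), and in the authors' deposited table it was 1.40-fold higher with a false discovery rate of 0.0233. Vav1, an activator of Rac, had a difference of 0.37 and Btk, a Tec family kinase, of -0.60. Among 42 listed genes of macrophages and microglia 0 passed by limma, with a median difference of 0.08. At an unadjusted p under 0.05, 3 were higher (10.8% of all genes) and 2 were lower (9.20%). C1qa, C1qb and C1qc are on this list and on that of the complement proteins above. C1qb, lower at an unadjusted p of 0.0347 by limma, is thus counted in both. Cd74, the invariant chain of MHC class II, had 1304.7 ± 131.2 and 1810.7 ± 117.6, Sall1, a transcription factor of microglia that other nerve cells express too, 653.0 ± 184.6 and 1138.3 ± 174.7, and Cd9, a tetraspanin that is abundant in myelin, 20239 ± 3291 and 12546 ± 602 normalized counts (SD, n = 3 each). Their log2 differences were 0.48, 0.83 and -0.68, and after the length correction 0.70, 0.65 and -0.42. Their false discovery rates in the authors' deposited table were 0.0197, 0.0292 and 0.0023. Sall1 passed without wildtype replicate 3, with a difference of 1.04 (adjusted p = 0.0355; alternatives from 0.0355 to 0.485).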

How the data were processed

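Total RNA of 6 samples was purified with the miRNeasy kit and made into libraries with the TruSeq RNA kit, per the labels' protocols. TopHat2, Partek, DESeq2 and the build mm10 are named without roles in the submitters' processing notes. For strand setting and read depth the sources used here give nothing. The deposited values are entered as a score, since they appear to be counts per gene that the authors normalized between samples and then rounded: median-of-ratios factors of the columns lay between 1.0038 and 1.0068 and the deposited fold change of 99.8% of 13938 genes was within 1% of the ratio of means. The table also holds the authors' fold change and false discovery rate, per the file headers, and the rate is lacking for 2061 genes. Sample columns left unused numbered 0. No count test was run, as the values are not raw reads.

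Values were taken as log2(value + 1), which understates the change of low genes. A filter at a mean of 1 removed 0 genes. Limma 3.58.1 in R 4.3.3 fitted the label (eBayes, trend = TRUE), with Benjamini-Hochberg adjustment over 17666 genes. The fit was checked on data drawn with known changes, for genes with a mean of at least 50. These data had the same spread in both labels, so the check does not cover the larger spread among wildtype libraries. The smallest p that an exact permutation of 3 against 3 libraries allows is 0.1. Libraries of 1 label differed by a chi-square per gene of 23.7 or more, so the 6 were counted as separate. Transcript lengths are the longest transcripts of GENCODE M21 (17358 genes), and the length correction took a lowess curve (span 0.3, fitted on genes with a mean of at least 50) off each library; it was chosen after the data were seen. Gene positions are those of RefSeq for GRCm38.p6.

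One list of marker genes is not reported here. The genes and lists were chosen with earlier results of these data known. The rule for named genes gives values for every library for complement receptors, for lineage genes and for genes at an unadjusted p under 0.05, called by the authors or without overlap. Other lists name up to 4 such genes. The other genes of the 31, Itgax and Itgam as neighbours, Hc and the ratios were given beyond that rule. The alternatives were a pseudocount of 10, a mean of at least 20, quantile normalization, sample weights, robust estimation, a replicate block, the length correction and leaving out each library.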

Additional observations from a re-analysis of the deposited data

How the results depend on the processing

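The number of reads behind each value is unknown, which limits the genes of low count most, Itgax above all. Under 13 alternatives, 382 of 403 values of single macrophage genes kept their sign and their side of the threshold, and 20 of the 31 genes never changed sign. By limma, 0 of the 31 genes passed under any alternative but 1: Itgam without wildtype replicate 3 (0.69, adjusted p = 0.0488). Leaving out 1 library gave 0 to 1 genes past the threshold, 2 to 8 at an unadjusted p under 0.05 (10.7% and 29.2% of all genes in those fits), 11 to 16 without overlap (33.2% and 47.7% of all genes), and a median of -0.26 to -0.02. At an unadjusted p under 0.05 there were 8 genes after quantile normalization (20.4% of all genes) and 2 after the length correction (14.6%). The median was -0.06 with sample weights and -0.06 after the length correction. The causes were not tested.

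Some differences changed sign: after the length correction Mrc1 (-0.14), Trem2 (0.25), Cd163 (-0.05), Lyz2 (0.08), Ly86 (0.12) and Cd47 (-0.07), and after quantile normalization Cd163 (-0.07). Mertk (-0.43 over all 6 libraries) and Tmem119 (-0.30) were not near 0 and changed sign without wildtype replicate 3. Leaving out 1 library, the ranges were -0.09 to 0.33 for Aif1, -0.21 to 0.17 for Mrc1, -0.13 to 0.07 for Trem2, -0.28 to 0.46 for Cd163, -0.80 to 0.26 for Mertk, -0.12 to 0.09 for Ctss, -0.60 to 0.05 for Tmem119, -0.30 to 0.08 for Ly86, -0.15 to 0.65 for Itgax and -0.30 to 0.01 for Itgb2.

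With the replicate block, the log2 differences of C3 and C4b were 1.62 and 1.20 and no longer passed (adjusted p = 0.117 and 0.0901), and 0 of the 31 macrophage genes passed. The labels do not say that equal numbers share a litter or a day, and the deviations of equal-numbered libraries correlated at -0.03, 0.09 and 0.20, so the numbers were not taken to pair the samples. Of the 3 wildtype libraries, 2 correlated best with their own number.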

Other observations

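Counts of macrophage genes were also set against Csf1r in the same library, which removes the scaling between libraries. Itgam counts per Csf1r count were 0.109, 0.123 and 0.134 in wildtype libraries and 0.163, 0.166 and 0.165 in the libraries labelled knockout. Cd86 counts per Csf1r count were 0.0317, 0.0392 and 0.0578 against 0.0182, 0.0201 and 0.0192, and those of Cd14 were 0.0722, 0.105 and 0.130 against 0.0673, 0.0489 and 0.0540. Tyrobp and Cd68, both short transcripts, had 0.131, 0.199 and 0.158 against 0.102, 0.108 and 0.0927, and 0.125, 0.163 and 0.124 against 0.0918, 0.0905 and 0.0896. None of these 5 ratios overlapped between the labels, and the share of all genes whose ratio to Csf1r does not overlap was not computed. Cd14 (1641 bases) is short as well, beside 4701 bases for Csf1r, and the ratios were not corrected for length. The ratio of Cx3cr1 to Csf1r was 0.323, 0.369 and 0.151 against 0.389, 0.369 and 0.363, which overlap. The counts themselves overlapped for Cd14 and did not for Cx3cr1. The ratios were chosen after the values were seen.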
